A study of Mus musculus with 3 samples.

Results

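Glutathione transferases join the tripeptide glutathione to reactive, often oxidised molecules, which are then exported from the cell and broken down. The cytosolic enzymes fall into classes (alpha, mu, omega, pi and theta here), and a separate membrane-bound enzyme sits in the endoplasmic reticulum and the outer mitochondrial membrane. Leydig cells, the testosterone-making cells of the testis interstitium, are known for high levels of several of these enzymes, and the cytochrome P450 steps of steroid synthesis are a known source of reactive oxygen. The 10 glutathione transferase genes examined were Gsta2, Gsta3, Gsta4, Gstm1, Gstm2, Gstm5, Gsto1, Gstp1, Gstt1 and Mgst1, out of 24698 genes in the merged count table. They were chosen by name, with earlier results of these data known. Their levels were read on each day of culture and, on day 14, in cells below or at and above a limit of 10 UMIs (unique molecular identifiers, counted RNA molecules) of Cyp11a1 plus Hsd3b1 per 10000 UMIs of the cell. Those 2 genes encode steroid-making enzymes and served only to split the cells, so they are not results here.

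The cells were Sca1+/cKit- cells sorted from testes of adult C57BL/6 mice aged 8 to 12 weeks and grown on Matrigel towards Leydig cells. After recovery in serum they were expanded for 3 days with PdgfAA, PdgfBB, Fgf2 and the hedgehog agonist SAG, and the differentiation medium that followed kept these 4 agents and added LiCl2 and the Notch pathway inhibitor DAPT. Drop-seq, a droplet method that counts the ends of RNA molecules in single cells, gave 1 library each for culture days 4, 7 and 14, with no replicate. The sort did not use Tcf21, how many animals were pooled is not given, and no untreated culture was among the samples. Day 7 cells had spent 3 days and day 14 cells 10 days in differentiation medium, while day 4 falls at the change of medium. Time in culture, the change of medium and any difference between libraries therefore cannot be told apart.

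The libraries held 2980 cells on day 4, 2171 on day 7 and 973 on day 14, at median depths of 2886.5, 3285 and 3272 UMIs. On day 14, 555 cells lay below the enzyme limit (median depth 3063 UMIs) and 418 at or above it (3603 UMIs), against 8 cells at or above it on day 4 and 33 on day 7. Near the limit stood 75 day 14 cells with 5 to under 10 and 74 with 10 to under 20 enzyme UMIs per 10000. Marker genes went with the labels in part. The summed level of 7 Leydig markers in CPM (UMIs of a gene per 1000000 UMIs) was 212, 396 and 3864 over the 3 days, and that of 8 myofibroblast markers was 6619, 5794 and 432 CPM. The gene of the sorted surface protein Sca1, Ly6a, stood at 523, 64.2 and 358 CPM. In each library 43.8% to 51.8% of the barcodes shared their first 11 bases with another barcode. Whether such barcodes came from 1 cell was not settled. On day 14, 104 of 115 sets of 4 such barcodes lay wholly on 1 side of the enzyme limit. Summing such barcodes left 2027, 1414 and 601 cells on days 4, 7 and 14, at median depths of 5341, 6910 and 8024 UMIs. The numbers of cells given here are of barcodes before such summing. No barcode was shared between libraries. Shares of cells may therefore count a cell more than once, while the levels of a whole day are sums of UMIs, which do not depend on how its barcodes are grouped. All intervals are exact 95% intervals that cover counting error only, and a 2-fold difference in CPM was the limit for calling a gene higher or lower.

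Promoter sequences, the 250 bases before the start of transcription, were matched for 9 of the 10 genes in RefSeq on build GRCm38.p6. They are shown for genes of each pattern described below, cut off where the window runs into an annotated exon. The RefSeq start used for Gsta2 lies inside the longer span that GENCODE gives the gene, so annotated exon sequence also lies upstream of that stretch. Gsta2 and Gsta3 are alpha class genes that were higher on day 14, Gstm2 is a mu class gene that was higher on day 14 with overlapping intervals on both sides of the enzyme limit, and Gsto1 was lower on day 14. Capitals mark matches of letters only. In Gsta2 they mark the letters of a TATA box (TATAAA), here on the other strand and 246 bases before the start. In Gsta3 they mark those of the core of an antioxidant response element (TGACNNNGC), the kind of sequence bound by the oxidative stress factor NRF2.
Gsta2, chr9:78347169-78347395, minus strand: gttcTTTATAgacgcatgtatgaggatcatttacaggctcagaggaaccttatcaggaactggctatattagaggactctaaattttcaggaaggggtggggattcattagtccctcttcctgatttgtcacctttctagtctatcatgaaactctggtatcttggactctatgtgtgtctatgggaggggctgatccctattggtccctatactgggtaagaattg
Gsta3, chr1:21240335-21240584, plus strand: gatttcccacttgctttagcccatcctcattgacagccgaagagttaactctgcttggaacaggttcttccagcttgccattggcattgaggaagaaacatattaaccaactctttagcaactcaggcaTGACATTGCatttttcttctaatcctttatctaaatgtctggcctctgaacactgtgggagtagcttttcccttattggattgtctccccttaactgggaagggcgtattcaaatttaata
Gstm2, chr3:107986454-107986670, minus strand: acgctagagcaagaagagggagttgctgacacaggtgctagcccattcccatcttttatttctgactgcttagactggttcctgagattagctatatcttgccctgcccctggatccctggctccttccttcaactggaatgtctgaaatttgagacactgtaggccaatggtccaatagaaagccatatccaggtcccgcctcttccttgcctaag
Gsto1, chr19:47854723-47854969, plus strand: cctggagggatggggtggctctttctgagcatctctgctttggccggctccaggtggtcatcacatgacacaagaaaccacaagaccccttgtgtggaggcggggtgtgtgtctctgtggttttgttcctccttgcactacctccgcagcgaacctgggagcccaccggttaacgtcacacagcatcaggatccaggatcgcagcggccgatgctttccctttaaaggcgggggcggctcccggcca

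Both strands of the 300 bases around each start (250 before and 50 after) were searched for 3 motifs. The antioxidant response element core was found in Gsta3 (121 bases before the start), in Gstm5 (42 bases before it) and in Mgst1 (56 bases before the first of its starts, on the other strand), and 12.4% of all 32851 promoters hold it. TATAAA was found 30 bases before a start of Gstm1, after the start of Gstm5 and, on the other strand, 246 bases before the start of Gsta2, and 13.6% of all promoters hold it. The half-site of steroidogenic factor 1 (CAAGGTCA), which is in 1.56% of all promoters, was in no promoter of the matched members. These are matches of letters only. Matched members with and without the antioxidant core were past 2-fold on day 14 against day 7. Gsta4 had no matched promoter, and the part of these motifs in the levels was not tested.

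Together the 10 genes took 0.264% of the day 4 UMIs, 0.235% of those of day 7 and 0.907% of those of day 14. On day 14 the share was 0.767% below the enzyme limit and 1.05% at or above it. The plot of levels by group shows that the genes did not move as 1 block.

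**Figure D1:**
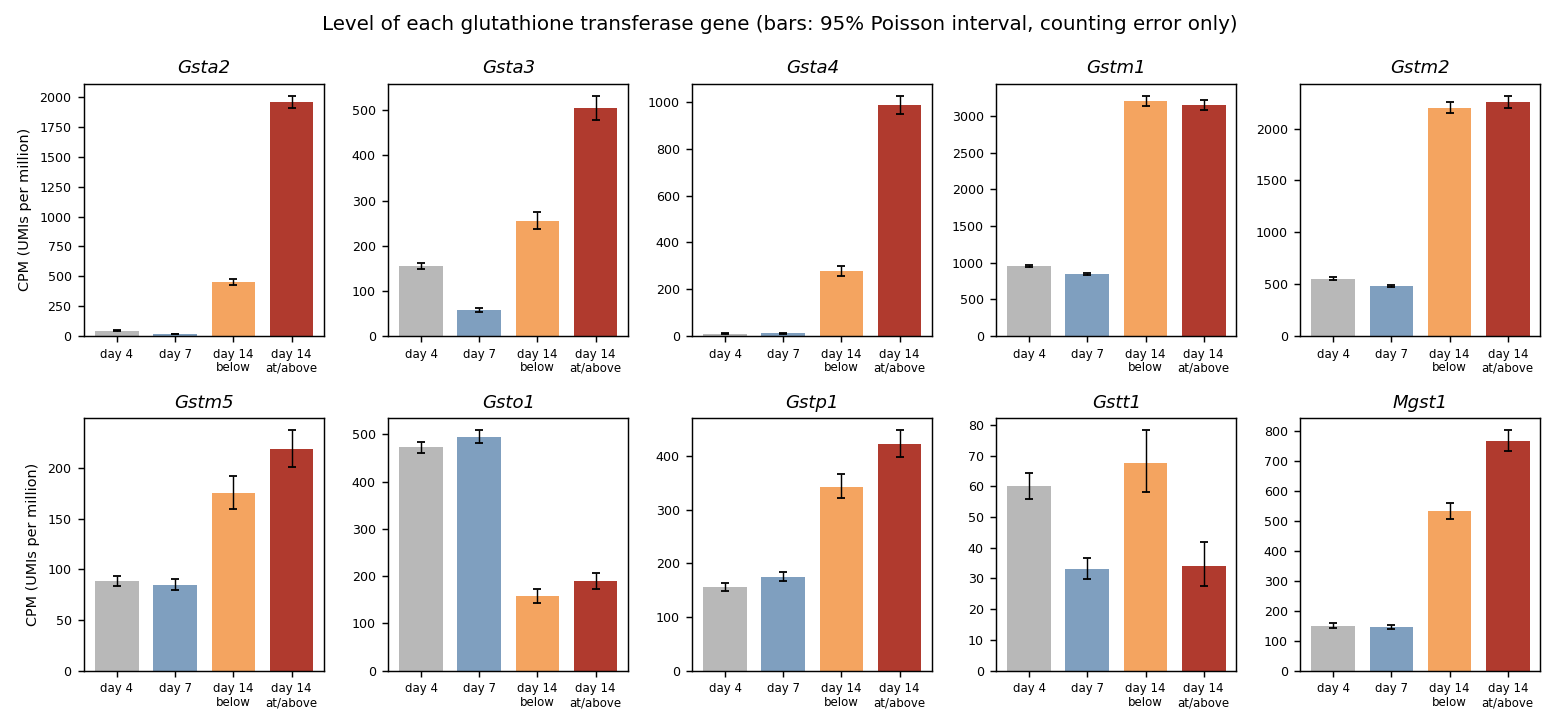
Level of each of the 10 genes in CPM (vertical axis from 0, a scale of its own per gene) in day 4 cells, day 7 cells and day 14 cells below and at or above the enzyme limit. Bars are summed UMIs scaled to CPM and error bars are exact 95% Poisson intervals. Gsta2 and Gsta4 stand highest at or above the limit (1959 and 988 CPM), Gstm1 and Gstm2 stand level on both sides of it, and Gsto1 is lower on day 14 than on both earlier days.

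The alpha class genes came with the widest differences. Gsta2 encodes an alpha class enzyme that also reduces lipid peroxides (chromosome 9 of GRCm38, 78331018 to 78355788, minus strand, 7 exons). Its level was 45.0 CPM (571 UMIs, interval 41.4–48.9) on day 4, 15.7 CPM (183 UMIs, 13.5–18.2) on day 7, and on day 14 it was 449 CPM (1208 UMIs, 424–475) below the enzyme limit and 1959 CPM (5159 UMIs, 1906–2014) at or above it. The order of the 4 groups was day 7, day 4, day 14 below and day 14 at or above, with no overlap of neighbouring intervals. Over the whole library, day 14 was 76.0 times as high as day 7 (65.6–88.5).

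Gsta4 encodes the alpha class enzyme known for conjugating hydroxynonenal, a toxic product of lipid peroxidation (chromosome 9, 78182774 to 78209349, plus strand). It stood at 9.31 CPM (118 UMIs, 7.70–11.1) on day 4 and 10.3 CPM (120 UMIs, 8.56–12.3) on day 7. On day 14 it stood at 277 CPM (746 UMIs, 258–298) below the limit and 988 CPM (2602 UMIs, 951–1027) at or above it. Days 4 and 7 did not differ beyond their intervals, and both day 14 groups lay above them. The ratio of day 14 to day 7 was 60.9 (50.8–73.7).

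Gsta3, an alpha class gene whose mouse enzyme is known for detoxifying aflatoxin and whose human counterpart isomerises steroid intermediates (chromosome 1, 21240589 to 21265661, plus strand), was already present on day 4. Its level was 154 CPM (1956 UMIs, 148–161) on day 4, 57.2 CPM (665 UMIs, 52.9–61.7) on day 7, 255 CPM (687 UMIs, 237–275) in day 14 cells below the limit and 505 CPM (1329 UMIs, 478–533) at or above it. Like Gsta2, the gene was lowest on day 7 and highest in the cells with the enzymes.

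Gstm1 and Gstm2 had another pattern. Gstm1, the main mu class enzyme of many mouse tissues (chromosome 3, 108012255 to 108017973, minus strand), stood at 956 CPM (939–973) on day 4, 848 CPM (832–865) on day 7, 3213 CPM (3146–3282) below the limit on day 14 and 3159 CPM (3091–3228) at or above it. Gstm2, whose gene lies beside it (chromosome 3, 107981702 to 107986453, minus strand), stood at 553 CPM (540–566), 482 CPM (470–495), 2202 CPM (2147–2259) and 2261 CPM (2204–2319) in the same 4 groups. For both genes the day 14 groups lay above the earlier days and their intervals overlapped each other. Gstm5, the mu class gene best known from brain and testis (chromosome 3, 107895821 to 107898686, plus strand), stood at 88.3 CPM (83.2–93.6) on day 4, 84.9 CPM (79.7–90.4) on day 7, 175 CPM (160–192) below the limit and 218 CPM (201–237) at or above it, again with days 4 and 7 overlapping.

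Mgst1, the membrane-bound enzyme (chromosome 6, 138140316 to 138156755, plus strand), stood at 150 CPM (144–157) on day 4, 144 CPM (137–151) on day 7, 532 CPM (504–560) below the limit and 767 CPM (734–801) at or above it. Gstp1, the pi class enzyme, also known as a binding partner of the stress kinase JNK (chromosome 19, 4035407 to 4037985, minus strand), stood at 156 CPM (149–163), 175 CPM (168–183), 343 CPM (322–366) and 422 CPM (398–448) in the same order. Both were higher on day 14, with the cells at or above the limit highest.

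Gsto1 and Gstt1 went another way. Gsto1, the omega class enzyme that reduces dehydroascorbate and removes glutathione from proteins (chromosome 19, 47854970 to 47864790, plus strand), stood at 472 CPM (461–485) on day 4, 495 CPM (483–508) on day 7, 157 CPM (143–173) below the limit and 189 CPM (173–206) at or above it. Gstt1, the theta class enzyme known for its action on halogenated methanes (chromosome 10, 75783813 to 75798584, minus strand), stood at 60.0 CPM (55.8–64.5), 33.2 CPM (30.0–36.7), 67.6 CPM (58.2–78.2) and 34.2 CPM (27.5–42.0). Gsto1 was lower on day 14 on both sides of the limit, and Gstt1 was lower on day 7 and in the day 14 cells with the enzymes than in the other groups.

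From day 4 to day 7, 0 of the 10 genes were 2-fold higher and 2 were 2-fold lower, Gsta2 (ratio 0.349, 0.294–0.413) and Gsta3 (0.371, 0.339–0.405). Over all 12952 genes with at least 20 UMIs in the 2 libraries, 2.25% were higher and 2.76% lower. Gstt1 was at 0.553 of its day 4 level (0.488–0.626), and the other 7 genes had ratios from 0.872 to 1.12.

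From day 7 to day 14, 8 of the 10 genes were 2-fold higher and 1 was lower, against 10.1% and 14.0% of 12654 genes. The list was chosen with earlier results of these data known, so its count beside these shares is a description, not a test. After Gsta2 and Gsta4 came Gsta3 (6.62, 6.06–7.24), Gstm2 (4.63, 4.48–4.78), Mgst1 (4.49, 4.24–4.76), Gstm1 (3.76, 3.66–3.85), Gstm5 (2.31, 2.12–2.53) and Gstp1 (2.18, 2.05–2.32). Gsto1 was at 0.349 of its day 7 level (0.325–0.374), and Gstt1 stayed inside the limit at 1.54 (1.31–1.80). The median log2 ratio was 2.03 over the members and −0.13 over all genes. Against day 4 the counts were the same, 8 higher and 1 lower, with 13.4% and 15.3% of 12710 genes, and Gsta4 had the highest ratio (67.6, 56.2–81.9), followed by Gsta2 (26.5, 24.4–29.0).

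Most members were also past 2-fold in the day 14 cells low in both enzymes. Against day 7, 8 of the 10 genes were 2-fold higher in them and 1 was lower, with 8.79% and 12.7% of 12268 genes. Gsta2 was 28.5 times as high (24.4–33.5) and Gsta4 26.9 times (22.1–32.8). Gstm2 (4.57), Gsta3 (4.46), Gstm1 (3.79) and Mgst1 (3.68) came next, and Gsto1 was at 0.317 (0.287–0.350). Gstm5 (2.06, 1.84–2.30) and Gstt1 (2.04, 1.70–2.44) stood just outside the 2-fold limit and Gstp1 (1.96, 1.81–2.12) just inside it, so these 3 cannot be placed on 1 side of it at this depth.

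Within day 14, 2 of the 10 genes were 2-fold higher at or above the enzyme limit than below it and 0 were lower, against 3.18% and 5.98% of 10374 genes. These were Gsta2 (4.37, 4.10–4.65) and Gsta4 (3.57, 3.29–3.87). Gsta3 (1.98, 1.80–2.17) and Gstt1 (0.506, 0.388–0.654) had intervals that crossed the 2-fold limit. Mgst1 (1.44), Gstm5 (1.25), Gstp1 (1.23) and Gsto1 (1.20) were higher by less than 2-fold with intervals above 1. The ratios of Gstm1 (0.983, 0.954–1.01) and Gstm2 (1.03, 0.990–1.06) had intervals that held 1.

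**Figure D2:**
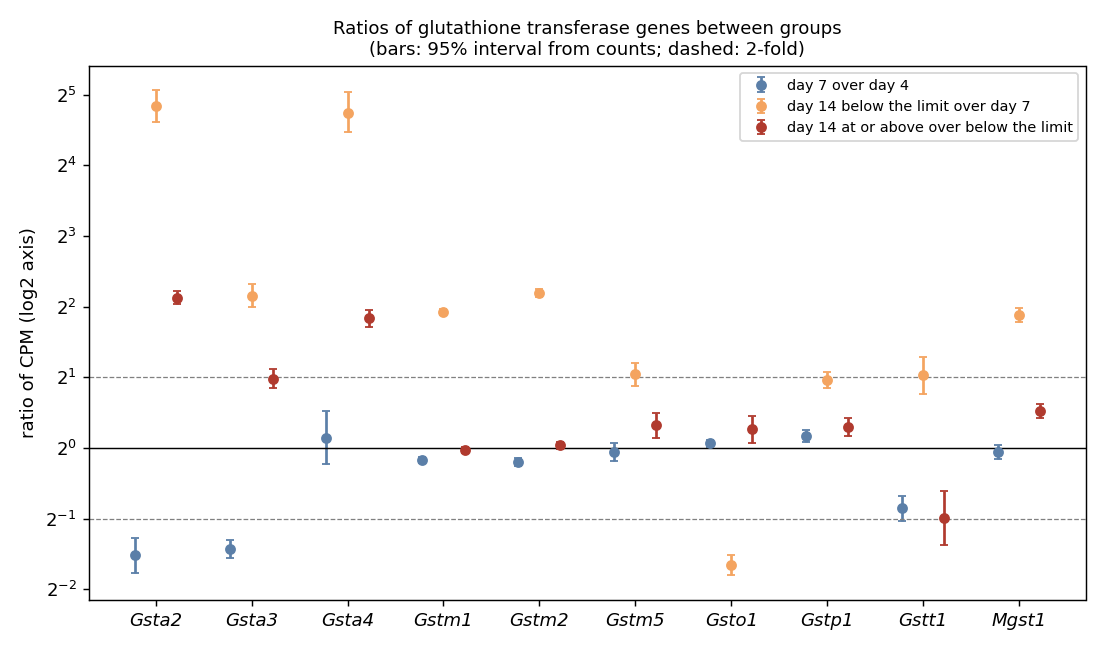
Ratio of CPM (vertical log2 axis) for each gene between day 7 and day 4, between day 14 cells below the enzyme limit and day 7, and between day 14 cells at or above and below the limit. Points are ratios and error bars 95% intervals from the counts, with dashed lines at 2-fold. Gsta2 and Gsta4 lie outside the dashed lines in both day 14 ratios, and Gstm1 and Gstm2 in the ratio to day 7 but not in the ratio across the limit.

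Other measures differed between the 2 day 14 groups beside the transferases. Below the limit, 7 progenitor markers summed to 2460 CPM and 8 macrophage markers to 415 CPM, against 1048 and 10.6 CPM at or above it. Most of the macrophage counts were the lysozyme gene Lyz2 (388 and 7.22 CPM). Below the limit 7 of the 8 macrophage markers had UMIs and C1qb had 0, while at or above it 3 of the 8 had UMIs. Below it, 5 cells held 2 or more macrophage UMIs, and without them Gsta2 stood at 441 CPM and Gstm1 at 3234 CPM below the limit, beside 449 and 3213 with them. All 5 epithelial markers in the table were at 0 on day 14. The 8 Sertoli markers summed to 960, 1209 and 2820 CPM over the 3 days, of which the protease gene Ctsl made 2767 CPM on day 14, when Amh, Dhh and Rhox5 were at 0. The median share of mitochondrial UMIs was 2.22% below the limit, 2.45% at or above it, and 1.19% and 1.37% on days 4 and 7. The part that the progenitor markers, the Sertoli list and the mitochondrial share had in the transferase levels was not tested.

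In finer steps of enzyme level Gsta2 and Gsta4 were highest in the topmost step, and Gstm1 and Gstm2 were not. Gsta2 stood at 239 CPM (210–271) in the 324 day 14 cells without any UMI of the enzyme pair, at 1014 CPM in the 75 cells with 5 to under 10 per 10000, and at 2560 CPM in the 112 cells with 100 or more. Gsta4 went from 201 CPM (174–230) through 520 to 1260 CPM over the same steps. The cells without enzyme UMIs were shallower, with a median of 2025 UMIs against 4428 in the topmost step, and how many of their transferase UMIs came from free RNA was not tested. Gstm1 was 3113 CPM in the cells without enzyme UMIs, highest at 4299 CPM with 10 to under 20 per 10000, and lowest at 2591 CPM in the topmost step. Gstm2 had its highest level, 3093 CPM, in the same step of 10 to under 20, and Gsta3 too, at 633 CPM. Mgst1 (833 CPM, 747–925) and Gstp1 (469 CPM, 406–540) were highest there as well, with intervals overlapping those of the next step up. Gstt1 went down from 77.5 CPM (61.5–96.5) without enzyme UMIs to 18.4 CPM in the topmost step.

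**Figure D3:**
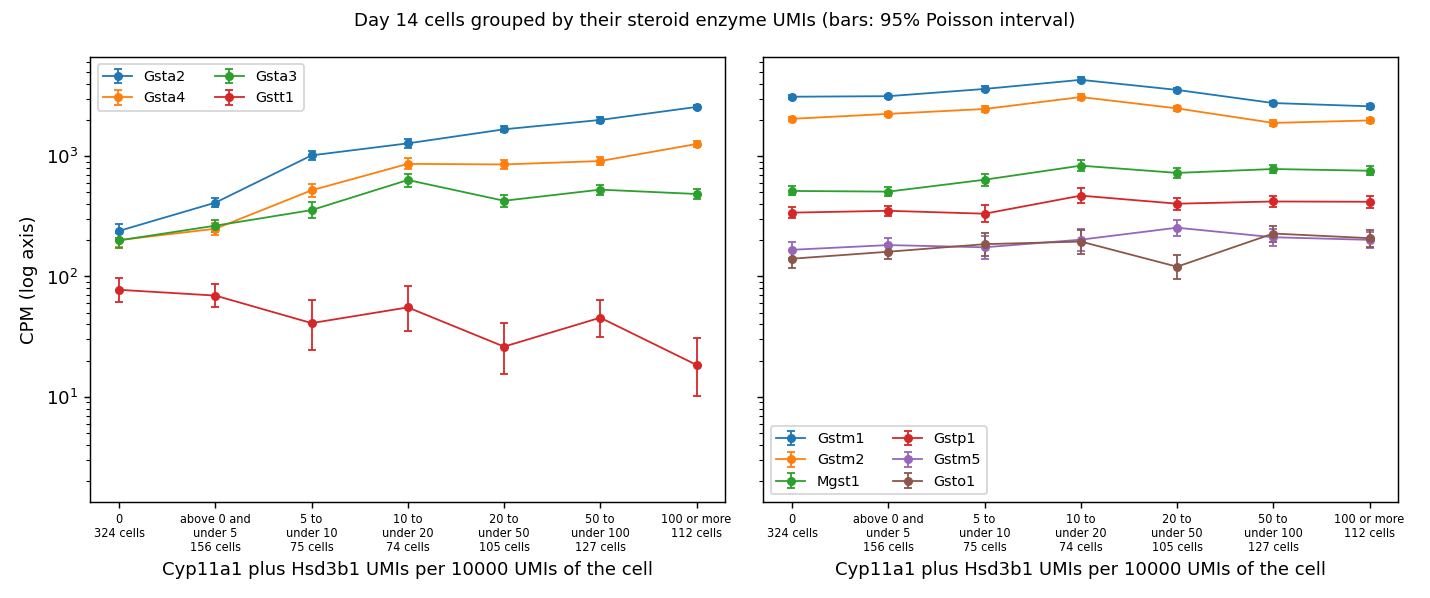
Level in CPM (vertical log axis) of the 10 genes in day 14 cells grouped by Cyp11a1 plus Hsd3b1 UMIs per 10000 (horizontal axis, number of cells under each step). Points are summed UMIs scaled to CPM and error bars exact 95% Poisson intervals. Gsta2 is higher at each step, from 239 to 2560 CPM, and Gstt1 is lowest in the topmost. Gstm1, Gstm2, Gsta3, Mgst1 and Gstp1 are highest in the fourth step.

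Among the cells at or above the limit, those with and without a UMI of Cyp17a1, the enzyme of the later androgen step, were set side by side. Gsta2 and Gsta4 levels lay close together, and Gstm1, Gstm2 and Mgst1 levels were lower with Cyp17a1. Gsta2 was 1995 CPM in the 189 cells with Cyp17a1 and 1903 CPM in the 229 without, and Gsta4 was 997 and 975 CPM. Gstm1 was 2712 CPM with Cyp17a1 and 3877 CPM without, and Gstm2 1981 and 2710 CPM. Mgst1 was 723 CPM (682–765) with Cyp17a1 and 838 CPM (783–897) without. Gstm5 did not share this, at 227 CPM (205–252) with Cyp17a1 and 204 CPM (177–234) without, and Gsta3 was at 479 CPM (446–514) and 546 CPM (502–594). The cells with Cyp17a1 were deeper, with a median of 5781 UMIs against 3030, and the part of depth in this was not tested.

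The level below the limit, as a percentage of that above it, was also set beside genes of Leydig cells. Below the limit Gsta2 was at 22.9% of its level above it (21.5–24.4%), Gsta4 at 28.1% (25.8–30.4%) and Gsta3 at 50.6% (46.0–55.5%). Insl3, the Leydig cell hormone, was at 24.7%, and Star, which brings cholesterol into mitochondria, at 48.8%. Cyp17a1 was at 1.33% and the LH receptor gene Lhcgr at 4.42%.

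The few cells at or above the limit on the earlier days held far more of the Gsta2 UMIs than their share of all UMIs. On day 7, 33 barcodes, 1.52% of the cells with 1.18% of the UMIs, held 119 of 183 Gsta2 UMIs (65.0%, 57.6–71.9%) and 50 of 120 Gsta4 UMIs (41.7%, 32.7–51.0%). On day 4, 8 barcodes held 91 of 571 Gsta2 UMIs (15.9%, 13.0–19.2%). These barcodes fell into 17 and 5 sets by their first 11 bases. Without them Gsta2 was at 5.57 CPM on day 7 and 38.0 CPM on day 4, and Gsta4 at 6.09 and 8.80 CPM.

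In these early cells Gsta2 stood at 870 CPM on day 7 and 1500 CPM on day 4, and Mgst1 at 1213 and 1533 CPM, both nearer in ratio to the day 14 cells than to the other cells of their own day. Gsto1 stood at 175 CPM in the 33 day 7 cells, close to the 189 CPM of day 14 cells with the enzymes, beside 499 CPM in the rest of day 7. Gstm1 stood at 1008 CPM in the 33 day 7 cells, close to the 846 CPM in the rest of that day, but at 3576 CPM in the 8 day 4 cells. Gstm1 thus gave no single pattern over the 2 early libraries, and 8 barcodes are few.

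**Figure D4:**
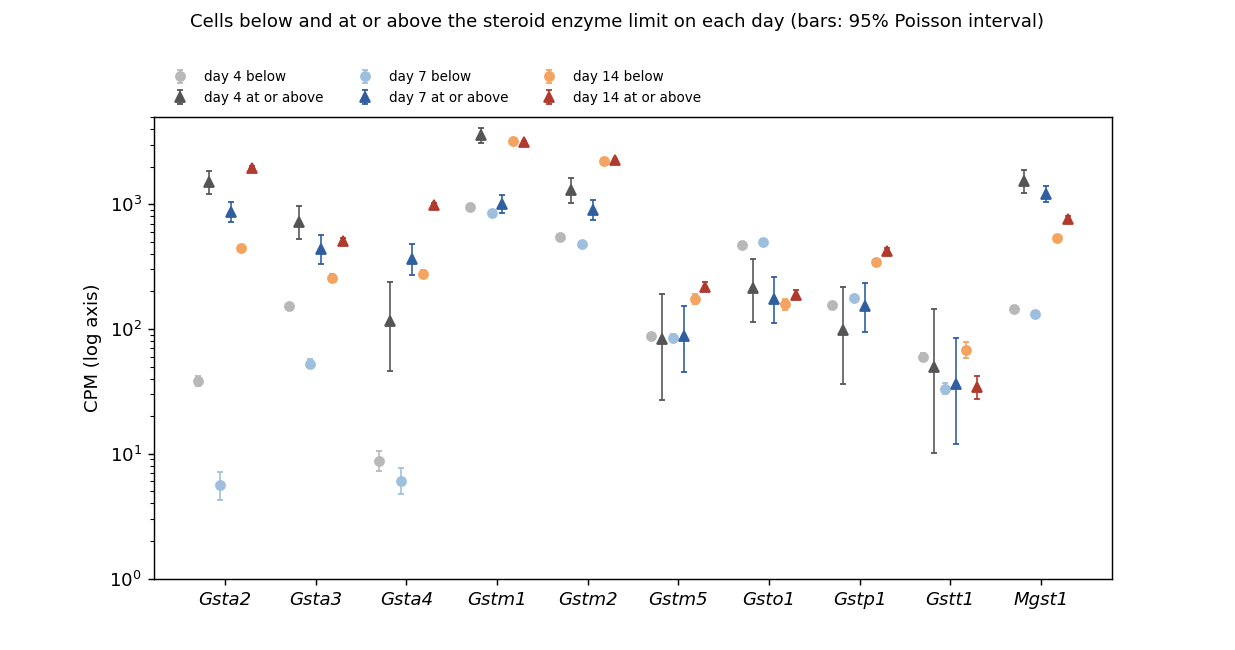
Level in CPM (vertical log axis) of each gene in cells below (circles) and at or above (triangles) the enzyme limit on days 4, 7 and 14. Error bars are exact 95% Poisson intervals. The triangles of Gsta2 and Mgst1 lie above the circles on each day, while for Gsto1 the early triangles (214 CPM on day 4 and 175 CPM on day 7) lie with the day 14 values.

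On the early days some members also differed along the myofibroblast markers, genes of contractile muscle-like cells. With the cells of a day ranked by the summed share of 8 such markers and cut into 4 equal sets, Gsta2 on day 7 was 74.3 CPM in the lowest set and 0.316 CPM, from 1 UMI, in the highest. Without the day 7 cells at or above the enzyme limit the lowest set was at 24.6 CPM (18.5–32.1). Gsta4 on day 7 was 41.2 and 1.26 CPM (20.9 and 1.26 without those cells), Gsta3 114 and 18.6 CPM, and Mgst1 268 and 86.6 CPM. Day 4 went the same way, with Gsta2 at 103 and 10.8 CPM, Gsta3 at 239 and 101 CPM and Mgst1 at 230 and 93.8 CPM. Gsto1 went the other way, from 399 to 550 CPM on day 4 and from 376 to 542 CPM on day 7. Gstm1 went from 949 to 1062 CPM on day 4 and from 936 to 878 CPM on day 7. Gstm2 went from 512 to 653 CPM and from 517 to 524 CPM on these days, and Gstp1 from 186 to 132 and from 183 to 171 CPM. In day 14 cells below the limit, the lowest set and the next both had a median of 0 of these markers, so the cut between them fell among ties. The highest set had a median of 12.5 per 10000 UMIs, beside 12.9 in the lowest set of day 4. Gstm1 was 2613 CPM in the lowest set, 2952 CPM in the next and 4000 CPM in the highest. Gstm2 was 1583, 2082 and 2845 CPM in these sets, while Gstm5 was at 165, 200 and 164 CPM. Cells with 2 or more UMIs of dividing-cell genes held less Gstm1 than cells with none, 680 against 1053 CPM on day 4 and 710 against 917 CPM on day 7. They were also deeper, with medians of 4595 against 2471 UMIs on day 4 and 5373.5 against 2619 on day 7. The part of depth in this was not tested.

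For Gsta2 and Gsta4, shares of cells gave much the same picture once each cell was thinned to 1500 UMIs. Shallower cells were dropped (753 on day 4, 429 on day 7, 120 below the limit and 59 at or above it on day 14). A Gsta2 UMI was then seen in 5.30% of day 4 cells (4.41–6.31%), 1.78% of day 7 cells (1.21–2.52%), 26.0% of day 14 cells below the limit (21.9–30.4%) and 81.1% at or above it (76.6–85.0%). Unthinned, the shares were 9.46%, 2.53%, 38.4% and 92.3%. For Gsta4 the thinned shares were 1.30%, 1.38%, 25.5% and 64.9%. Gstm1 was in 67.3% and 62.7% of day 4 and day 7 cells and in 94.5% and 94.7% of the day 14 groups, so nearly every day 14 cell held it. How many of these UMIs came from free RNA was not tested.

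**Figure D5:**
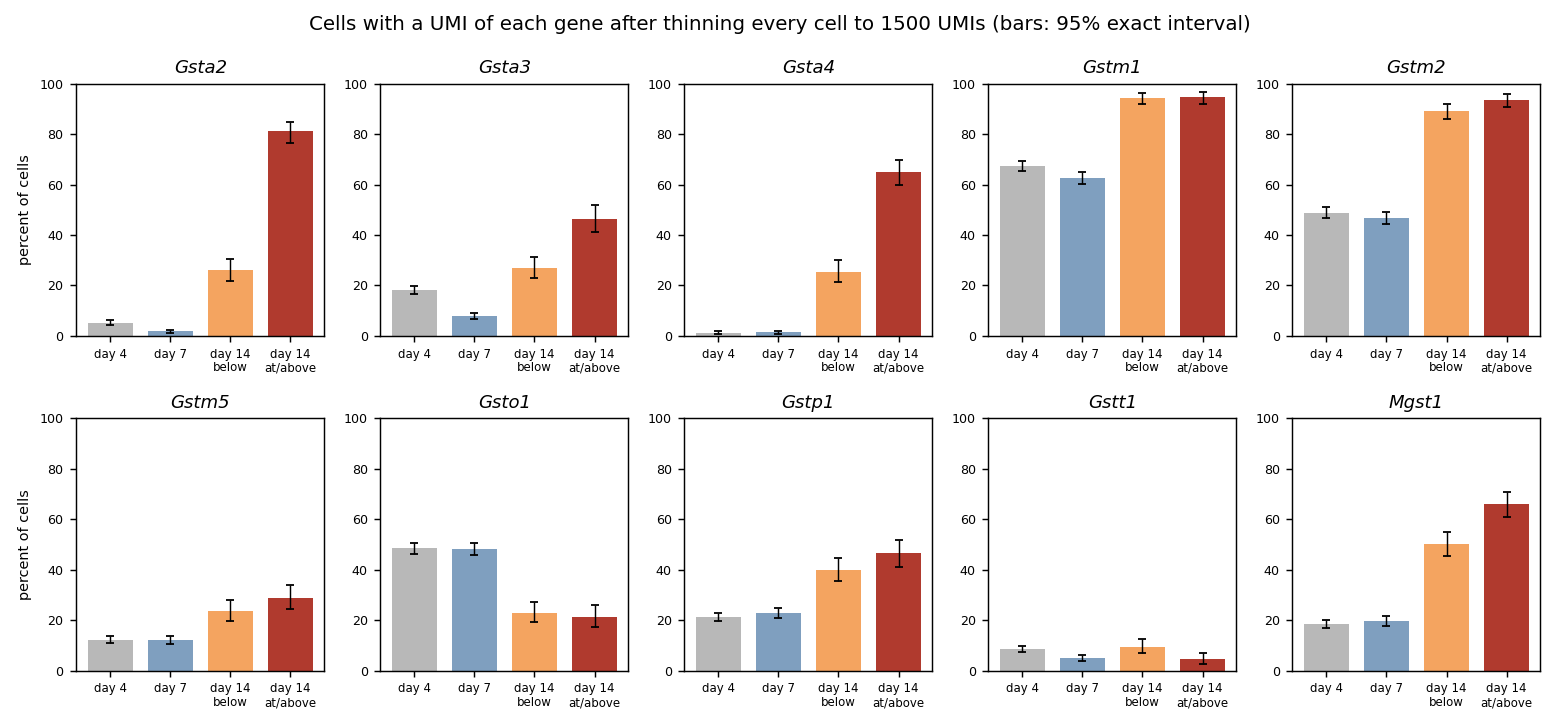
Percent of cells with at least 1 UMI of each gene (vertical axis from 0 to 100) after every cell was thinned to 1500 UMIs, in the same 4 groups as the plot of levels. Error bars are exact 95% binomial intervals. Gsta2 goes from 1.78% of day 7 cells to 81.1% of day 14 cells at or above the limit, and Gstm1 is at 94.5% and 94.7% in the day 14 groups.

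From cell to cell on day 14, Gstm1 and Gstm2 had the highest correlation of any pair of members, as a description over cells that share 1 library. Over the 418 cells at or above the limit their Pearson correlation was 0.527. Gsta2 gave 0.152 with Gsta4 and 0.218 with Mgst1, and Gstm1 gave 0.0063 with Gstm5. Over all 973 cells Gsta2 and Gsta4 gave 0.464, a value that holds the difference between cells with and without the enzymes. Over the 4 groups, the profiles most like a member's were sought among 2446 genes with at least 100 CPM in any group. Gstm1 and Gstm2 each stood at rank 3 among the genes nearest to the other, with a largest difference of 0.17 on the centred log2 scale. Nearest to Gsta2 were Lcn2, Aldh1a7 and Nkain4 (largest differences of 0.66 to 0.75), and to Gsta4 C6, Rhox8 and Prlr (0.44 to 0.55). Nearest to Gsta3 were Stc2, Serpina3g and Btd (0.20 to 0.59), and to Gsto1 Tars, Tuba1c and Fubp1 (0.089 to 0.093). Some of these genes had few counts on the early days, such as Rhox8 at 0.158 CPM on day 4.

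Some members have near copies that the counting could have mixed. The coding sequence of Gsta2 was 98.0% identical to that of Gsta1 and that of Gstp1 98.1% identical to that of Gstp2, while Gstm1 and Gstm2 were 86.5% identical. Of the stretches of 94 bases, the length of the sequenced read, in the last 500 bases of each transcript, 67.8% of those of Gstp1 were also found in Gstp2 or the pseudogene Gstp-ps and 8.11% of those of Gsta2 in Gm10639. For the other 8 members it was 0%. The level of Gstp1 is therefore uncertain. Gsta1 itself had 6 UMIs on day 4, a count that does not bear on the day 14 level of Gsta2.

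Other genes of the transferase superfamilies were read in the same way. Of 14 such genes with at least 20 UMIs over days 7 and 14, 6 were 2-fold higher on day 14 and 1 lower, beside 10.1% and 14.0% of all genes, with a median log2 ratio of 0.86. Gstk1, the kappa class enzyme of mitochondria and peroxisomes, went from 9.80 to 66.7 CPM, with 21.9 CPM below the enzyme limit and 112 CPM at or above it.

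Of 21 genes that make and recycle glutathione, 2 were 2-fold higher on day 14 than on day 7 and 5 lower, beside the same 10.1% and 14.0% of all genes, with a median log2 ratio of 0.03. Gclc and Gclm, the subunits of the enzyme that starts glutathione synthesis, stood at 20.4 and 69.7 CPM on day 7 and at 19.7 and 77.4 CPM on day 14. Txnrd1, thioredoxin reductase, went down from 253 to 106 CPM, and Ggct, which splits gamma-glutamyl peptides, up from 34.0 to 89.6 CPM. Of 11 genes of conjugate export and breakdown 4 were higher and 0 lower (median log2 ratio 0.52), with Ggt5, a surface enzyme that splits glutathione conjugates, at 4.64 CPM on day 7 and 74.0 CPM on day 14.

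Of 18 known targets of NRF2, 3 were 2-fold higher on day 14 than on day 7 (Osgin1, Me1 and the ferritin gene Ftl1) and 2 lower, with a median log2 ratio of 0.04, so that the counts lay near the 10.1% and 14.0% of all genes. Nqo1, the target most often used as a readout, was at 9.55 CPM on day 7 and 5.82 CPM on day 14. Among the regulators, Nfe2l2, which encodes NRF2, was at 162 and 142 CPM, and Nr5a1, which encodes steroidogenic factor 1, at 21.8 and 136 CPM. Nr5a1 was 85.4 CPM below the enzyme limit and 187 CPM at or above it.

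Of 20 genes that clear reactive aldehydes by other routes, 10 were 2-fold higher on day 14 than on day 7 and 1 lower, beside 10.1% and 14.0% of all genes, with a median log2 ratio of 1.09. The aldehyde dehydrogenase Aldh1a1 went from 438 to 3839 CPM, Aldh2 from 83.8 to 728 CPM and the aldo-keto reductase Akr1cl from 293 to 3821 CPM, while Aldh1a3 went down from 185 to 20.1 CPM. Across the enzyme limit on day 14, 2 of the 20 were higher and 2 lower, beside 3.18% and 5.98% of 10374 genes. The epoxide hydrolase Ephx1 was at 157 CPM below the limit and 497 CPM at or above it. Of 15 genes of steroid synthesis and Leydig cell function, among them the hormone gene Insl3, the receptor gene Lhcgr and the factor gene Nr5a1, 12 were 2-fold higher on day 14 than on day 7 and 0 lower, with a median log2 ratio of 2.59 beside the 2.03 of the members.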

How the data were processed

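Single-cell RNA was measured by Drop-seq in 3 libraries, 1 each for days 4, 7 and 14. The deposited counts are the authors' raw UMI totals for each gene and barcode, made with Drop-seq tools after STAR alignment to GRCm38. The submitters' processing notes also name Picard 2.6.0 and SAMtools 1.2. The annotation release is not given in the sources used here. The deposited values carry no normalization, the study's own scaling per cell not being in them. Per its methods, cells under 500 genes or above 10% mitochondrial UMIs were left out. That filter keeps 6128 barcodes of the counts per day, beside the 6124 cells in the merged table. All 6124 cells (29628950 UMIs, 594 to 80524 per cell) of the merged table were used and gave no entry that differed from the counts per day. A further 495 columns, from day 0 cells, were not used. Doublets were not called.

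UMIs were summed per day or cell group and scaled to CPM. Intervals are exact Poisson for levels, exact Clopper-Pearson for shares and exact binomial for ratios, at 95%. Log2 ratios used a pseudocount of 1 CPM, and genes with at least 20 UMIs over both groups were counted. With 1 library per day and cells no replicates, there is no test. The self-check on simulated data used 200 changed genes. Python 3.11.15, numpy 2.4.6, scipy 1.17.1, pandas 2.3.3, biopython 1.88 and matplotlib 3.10.9 were used, with seed 1 for thinning. Positions come from GENCODE M21 and promoters from RefSeq on GRCm38.p6.

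The members and gene lists were chosen with earlier results of these data known. All 10 members are described. Each further list gives its counts past 2-fold and its median log2 ratio, and names at most 3 genes of largest rise and 2 of largest fall with at least 50 CPM. Gclc, Gclm, Nqo1, Lyz2 and the genes of the percentages below the limit were named for their role, after values had been seen.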

Additional observations from a re-analysis of the deposited data

How the results depend on the processing

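No paired analysis was possible because each day is 1 library, and the replicate number is only a name. Each comparison was recomputed with all barcodes, a stricter cell filter (800 genes or more, 5% mitochondrial UMIs or less), equal weight per cell, without the 6% of cells with the most UMIs, with a total free of mitochondrial and ribosomal protein genes, centred on the median gene, with a pseudocount of 10 CPM and with cells thinned to 1500 UMIs. The split was also made at 5 and at 20 per 10000 and with Cyp11a1 alone. Chosen after seeing the data were summing barcodes with the same first 11 bases, leaving out day 14 cells with 2 or more macrophage UMIs, and leaving out day 4 and day 7 cells at or above the limit.

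No called ratio changed sign. The counts of members past 2-fold in the 3 comparisons between whole days were equal under every alternative run. Across the enzyme limit, Gstt1 was added as 1 lower member with equal weight per cell, without the deepest 6% of cells, without mitochondrial and ribosomal protein genes, after thinning, and with limits of 5 and 20, against 0 in the reported fit, and its log2 ratio ranged from −1.10 to −0.78. The count of higher members there was 2 or 3, with Gsta3 ranging from 0.65 to 1.18. Below the limit against day 7, 6 to 9 members were higher. Without the day 4 and day 7 cells at or above the limit, the log2 ratio of day 14 to day 7 was 7.51 for Gsta2, beside 6.16, and 6.47 for Gsta4, beside 5.80, and Gsta4 from day 4 to day 7 was −0.47, beside 0.14. The ratio of day 7 to day 4 for Gsta2 was then −2.57, beside −1.46. Of 590 member ratios under alternatives, 119 lay outside the counting interval of the reported ratio and 10 ratios, each within 2-fold of 1, changed sign. The median log2 ratio of genes with at least 100 CPM was −0.16 from day 7 to day 14, so centring moves every member up by that amount. Over the whole days and the day 14 groups, the fewest UMIs behind a level were the 90 of Gstt1 at or above the limit on day 14. Next came the 118 and 120 of Gsta4 on days 4 and 7. Levels in smaller sets of cells rest on fewer, down to 1 UMI. With at least 200 UMIs asked of each gene, 7.84% of all genes were 2-fold higher on day 14 than on day 7, beside 10.1%.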
